A study of Mus musculus with 8 samples.

Results

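The genes described here encode the proteins of the cytosolic ribosome. They were chosen by symbol: Rpl or Rps followed by a number and at most 1 of the letters a, l, x or y, with Rplp0, Rplp1, Rplp2 and Rpsa added. Kinases and annotated pseudogenes were left out, so Rps4l and Rpl6l, which match the spelling, are not among them. The rule found 78 of the 22667 genes listed, and 77 of them carried a value, of 21553 genes with a value in all. These 77 comprised 47 genes of the large (60S) subunit and 30 of the small (40S) subunit. Rps18 was listed without a value, and Rpl24 and Rpl41 were not analysed here.

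Ribosomal proteins are needed in near-equal numbers, since a ribosome holds a single copy of nearly every one. Their mRNAs are known to begin with a short pyrimidine run that follows a cytosine, the terminal oligopyrimidine or TOP motif, through which growth signals acting on mTOR and the binding protein LARP1 set their translation and stability. In the mouse, the egg brings a store of ribosomes and of dormant mRNA, much of that mRNA is cleared after fertilization, and the main wave of embryonic transcription begins in the 2-cell embryo.

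The study measured polyadenylated RNA of whole mouse embryos from B6CBA F1 crosses. Every embryo was microinjected with mRNA at the 1-cell stage: mCherry (a fluorescent protein, the control), Snrpb, Snrpd2, or both together. Both encode Sm proteins, part of the ring at the core of the spliceosome's small nuclear ribonucleoproteins. RNA was taken 5 h later, from 1-cell embryos, or 24 h later, from 2-cell embryos, which gives 8 conditions with 1 library each. A library was 1 pool of 40 embryos gathered over 3 experiments, so no condition had a replicate, and an uninjected embryo was not part of the set. In such bulk pools, fewer cells of a type and less RNA per cell cannot be told apart, and neither can less mRNA and a shorter poly(A) tail.

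The libraries held between 39492734 and 59979046 counted reads. At the 1-cell stage Snrpb stood at 43850 and 11913 cRPKM in the Snrpb and double-injected libraries and at 7.96 and 6.09 in the other 2, and Snrpd2 at 17926 and 9142 in the Snrpd2 and double-injected libraries and at 1.89 and 0.85 in the other 2. The 10 oocyte and zygote markers examined all had reads in every library, and the summed level of the 6 measured 2-cell markers went from between 49.7 and 156 cRPKM at the 1-cell stage to between 2000 and 3570 at the 2-cell stage. Of 22 cumulus and granulosa markers, between 1 and 5 were at 0 reads in a library. Their sum was 23.7 cRPKM in the 1-cell mCherry library against 33.4 to 50.1 in the injected ones, and 29.7 in the 2-cell Snrpd2 library against 21.6 to 23.1 in the other 2-cell libraries. The sperm markers summed to between 3.14 and 5.31 cRPKM. Of 10 blood and oviduct markers, between 4 and 6 were at 0 reads in a library, Hbb-bs and Hbb-bt (adult beta globins) in all 8. Their sum was between 2.76 and 5.11 cRPKM at the 1-cell stage and between 50.4 and 59.0 at the 2-cell stage.

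To show what the promoters of these genes look like, the annotated transcript start was read from RefSeq (GRCm38.p6) for the 57 genes with an entry. The motif searched was a C at the first transcribed base followed by at least 4 bases that are each C or T, on the sense strand. It stood at an annotated start of 12 of the 57 genes (21.1%), against 3.01% of all 27025 genes of the table, and within 5 bases of the start in 27 of them (47.4% against 21.2%). The windows below run from 15 bases before the start to 15 bases from it. They were picked to set genes whose RNA rose between the stages (Rplp2, Rps27l, Rpl10l) beside genes whose RNA fell (Rpl15, Rps15a) or was not called (Rps10), and the paralogues Rps27 and Rps27l beside each other. Capitals mark the unbroken run of C and T from the first transcribed base.
Rplp2, chr7:141447636-141447665, plus strand: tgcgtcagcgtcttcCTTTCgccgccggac
Rpl15, chr14:18270972-18271001, minus strand: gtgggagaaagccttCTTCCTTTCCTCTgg
Rps15a, chr7:118116133-118116162, minus strand: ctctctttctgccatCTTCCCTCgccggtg
Rps10, chr17:27635230-27635259, minus strand: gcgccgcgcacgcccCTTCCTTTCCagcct
Rps27, chr3:90213634-90213663, minus strand: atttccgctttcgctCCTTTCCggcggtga
Rps27l, chr9:66946071-66946100, plus strand: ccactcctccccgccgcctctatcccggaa
Rpl10l, chr12:66284387-66284416, minus strand: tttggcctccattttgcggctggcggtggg
The first 5 begin with a C and a run of between 5 and 13 pyrimidines. Rps27l and Rpl10l begin with a G at the start shown, and the other annotated start of Rps27l does too. No match says only that the motif did not begin at the first transcribed base. It can still lie elsewhere in the window, as it does in that of Rps27l. The windows shown do not stand for all genes that rose or fell. Rpl37 fell and has no match, and Rpl38 rose and has one.

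Levels are given as the deposited cRPKM, a read density by length and library size. In each library a gene's cRPKM is its count divided by a fixed length, and for these genes that length is often short. It was less than 0.5 of the coding length in 28 of 77 genes (36.4%), against 3.88% of 18267 protein-coding genes, and it was under 100 bases in 17 genes. Rps27, a small-subunit zinc-finger protein, had a length of 2 bases and at most 1 read in any library, so its listed 11.8 cRPKM in the 2-cell mCherry library stands for 1 read. At the other end, the length was over 3 times the coding length in Rpl18, Rpl39, Rpl39l, Rps15a and Rps20. Ribosomal protein genes also have many processed pseudogene copies, and how multiply mapping reads were counted is not given in the sources used here. Levels of different genes are therefore uncertain in relation to each other, while ratios of 1 gene between libraries do not depend on the length.

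The ribosomal protein genes took a small share of the counted reads, which need not be their share of the mRNA given these short lengths and the unknown treatment of multiply mapping reads. They took 0.053%, 0.041%, 0.043% and 0.046% of all reads in the 1-cell mCherry, Snrpb, Snrpd2 and double-injected libraries, and 0.09%, 0.079%, 0.104% and 0.078% in the 2-cell libraries in the same order. All 2-cell shares were above all 1-cell shares. The median gene stood at 4.48, 2.94, 2.71 and 3.64 cRPKM at the 1-cell stage and at 9.99, 9.53, 13.2 and 9.54 at the 2-cell stage. Among genes with at least 10 reads, between 50.5% and 57.9% stood above the median ribosomal protein gene at the 1-cell stage, and between 28.2% and 33.8% at the 2-cell stage.

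**Figure D1:**
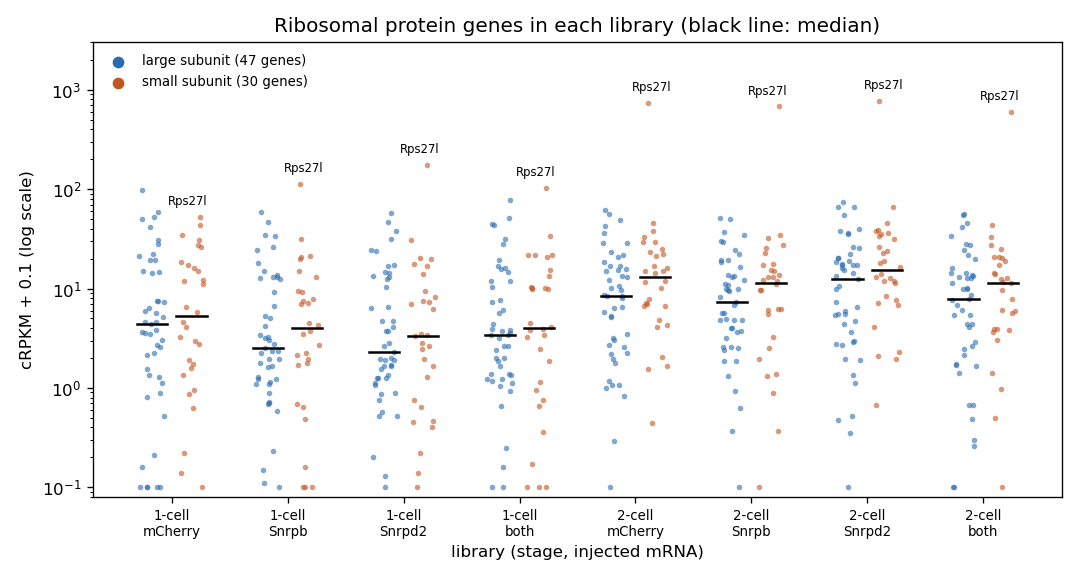
Each point is 1 ribosomal protein gene in 1 library, with cRPKM + 0.1 on a log axis. Large-subunit genes are blue, small-subunit genes orange, and black lines are medians. Rps27l is named in each library, and it is the highest point in 7 of the 8, reaching 771 cRPKM in the 2-cell Snrpd2 library.

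Within that share the genes were far from equal. At the 1-cell stage the highest mean levels were those of Rps27l, Rpl17, Rpl4, Rpl37 and Rpl32, and at the 2-cell stage Rps27l, Rplp0, Rpl4 and Rplp1 were among the highest. Rpl4, which lines the exit tunnel for the growing peptide, was among the steadiest: it stood at 59.1, 47.2, 46.9 and 50.9 cRPKM in the 1-cell mCherry, Snrpb, Snrpd2 and double-injected libraries and at 55.8, 51.0, 65.7 and 54.7 in the 2-cell libraries. Rpl32, a large-subunit protein, stood at 52.3, 33.6, 31.5 and 44.6 and then at 49.2, 34.7, 54.5 and 41.6. The stages overlapped for both genes. At the low end, Rpl12 of the stalk base stood between 0.03 and 0.27 cRPKM, and Rpsa, the small-subunit protein also known as laminin receptor, between 0.04 and 0.57.

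Rps27l had the highest mean level at either stage. It is a close paralogue of Rps27 and is known as a target of p53. It stood at 53.0, 114, 177 and 103 cRPKM in the 1-cell mCherry, Snrpb, Snrpd2 and double-injected libraries and at 741, 681, 771 and 605 in the 2-cell libraries. All 2-cell libraries were above all 1-cell libraries, and mCherry was the lowest 1-cell library. The gene alone took 4.5%, 12.6%, 18.5% and 10.1% of all ribosomal protein reads at the 1-cell stage, and 37.0%, 38.6%, 33.3% and 34.7% at the 2-cell stage. In order of level over all genes it went from rank 1600 in the 1-cell mCherry library to rank 57 in the 2-cell mCherry library. Without it, the other genes' share of all reads was 0.051%, 0.036%, 0.035% and 0.041% at the 1-cell stage and 0.057%, 0.049%, 0.07% and 0.051% at the 2-cell stage, so that the stages then overlapped.

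**Figure D2:**
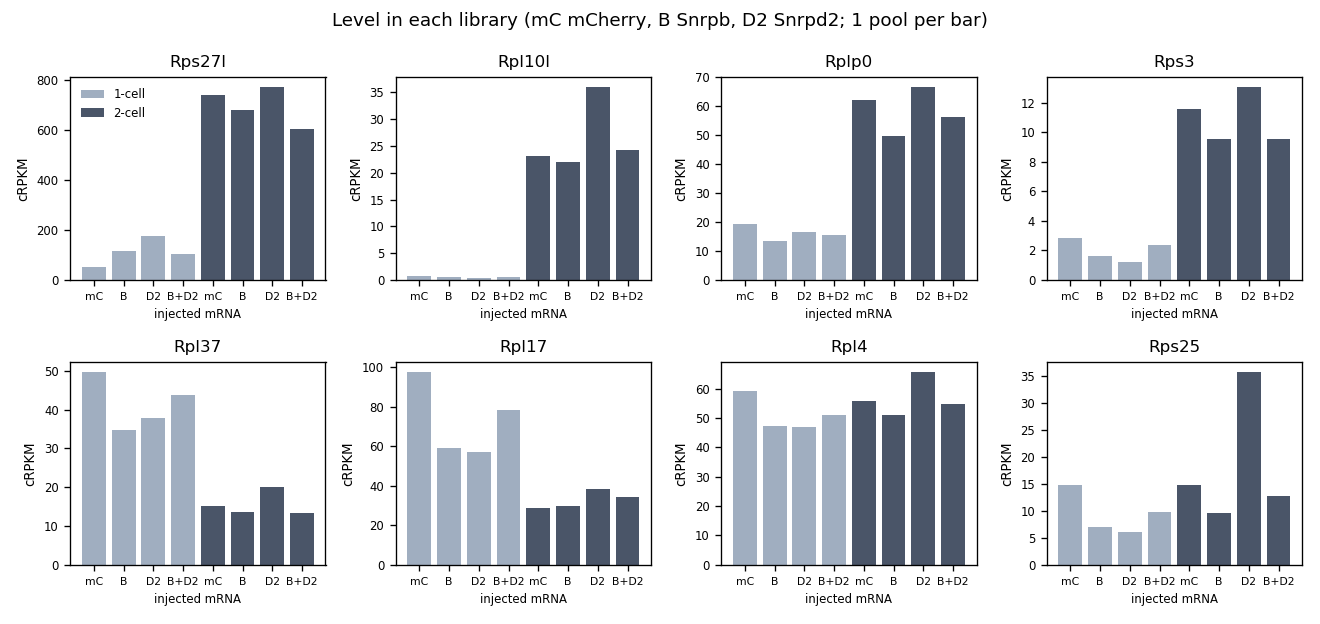
Bars give the cRPKM of 8 ribosomal protein genes in each library, with light bars for 1-cell and dark bars for 2-cell libraries and 1 pool per bar. Rps27l, Rpl10l, Rplp0 and Rps3 were higher in all 2-cell libraries, Rpl37 and Rpl17 lower, Rpl4 overlapped between the stages, and Rps25 stood highest in the 2-cell Snrpd2 library at 35.8.

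Between the stages, more ribosomal protein genes rose than fell. Of the 66 genes that passed the filter on low counts, 35 rose, 6 fell and 25 were not called (edgeR quasi-likelihood test with terms for injection and stage, adjusted p under 0.05 over 16264 genes). Over all genes tested, 38.1% rose and 32.0% fell, so the share of ribosomal protein genes that rose (53.0%) was above that background and the share that fell (9.09%) below it. Their median change was 0.76 on the log2 scale, against 0.15 for all genes. The cRPKM of the 4 libraries of a stage did not overlap in 37 genes that were higher and 4 that were lower at the 2-cell stage, with 42.8% and 24.8% of all genes tested as background. The 4 injections stand in for replicates here, so a p-value measures the spread between differently injected pools. The 1-cell and 2-cell Snrpd2 libraries bore on the count most. Without the former, 26 of 69 tested genes rose (37.7%, against 34.6% of all genes) and 8 fell (11.6% against 31.1%). Without the latter, 25 of 67 rose (37.3% against 34.3%) and 8 fell (11.9% against 31.4%). The share that rose was thus close to the background without either library, while the share that fell stayed below it. In this model, leaving out 1 library of an injection leaves the other 3 injections to carry the stage effect. The blood and oviduct marker sum rose with stage as well, mostly through Hba-a2 and Epcam. Hba-a2, an alpha globin, had 1 read over the 1-cell libraries and 26 to 30 in each 2-cell library. Epcam, an epithelial adhesion protein, stood at 0.14 to 0.35 and then at 9.39 to 13.9 cRPKM. Of the 5 tested markers of that list, Hba-a2, Epcam and Col1a1 rose. Cd68 and Ovgp1 did not follow, with log2 changes of -0.57 and -0.39, neither of them called. The part of the marker sum in the result was not tested.

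The rise was uneven across injections. Within an injection, the median log2 change of the 66 genes from one stage to the next was 0.45 in mCherry embryos, 0.70 in Snrpb embryos, 1.27 in Snrpd2 embryos and 0.47 in double-injected embryos. Over all genes it was 0.18, 0.15, 0.09 and 0.12. In all 4 injections 39 of the 66 genes were higher at the 2-cell stage (59.1%, against 40.9% of all genes tested) and 5 were lower (7.58% against 34.7%), and 22 were mixed (33.3% against 24.4%).

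**Figure D3:**
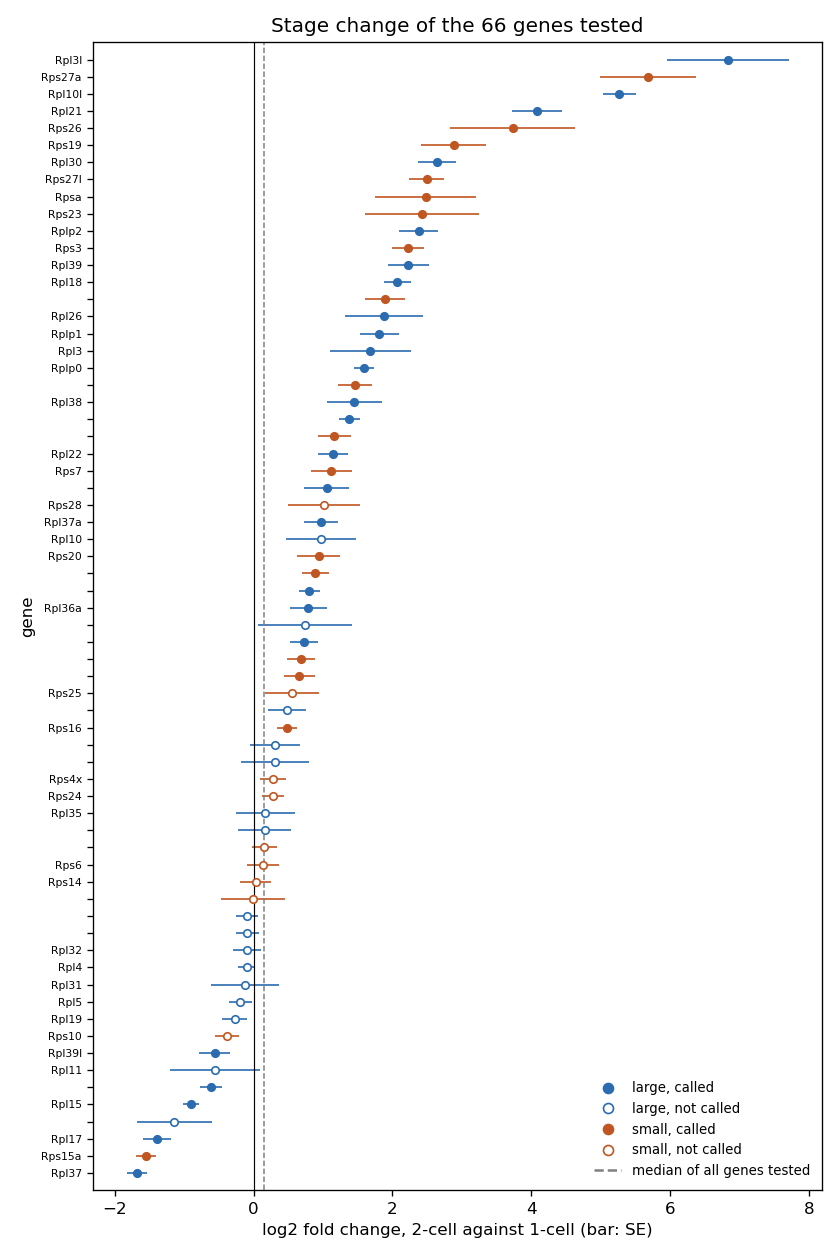
Log2 fold change, 2-cell against 1-cell, for the 66 genes tested, with bars of 1 SE. Filled points were called at an adjusted p under 0.05, blue points are large-subunit and orange points small-subunit genes, and the dashed line is the median of all genes at 0.15. Genes described in the text are named on the axis. Values run from -1.68 for Rpl37 to 6.83 for Rpl3l.

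In the large subunit, 19 of 40 tested genes rose (47.5%, against 38.1% of all genes) and 5 fell (12.5% against 32.0%). The median log2 change was 0.73. The stalk, which recruits the translation factors that hydrolyse GTP, rose in each of its 3 tested proteins. Rplp0, its anchor, stood at 19.5, 13.6, 16.6 and 15.5 cRPKM at the 1-cell stage and at 62.0, 49.6, 66.7 and 56.2 at the 2-cell stage, with no overlap. It rose 3.01-fold (log2 1.59, SE 0.15, edgeR adjusted p = 4.94e-06). Rplp1 and Rplp2, the acidic proteins that pair on it, rose by 1.81 (SE 0.28, edgeR adjusted p = 0.000203) and 2.38 (SE 0.28, edgeR adjusted p = 3.07e-05) on the log2 scale. Rpl12 had 7 reads at the 1-cell stage and 23 at the 2-cell stage over 4 libraries each and was not tested.

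The proteins of the exit tunnel wall went different ways. Rpl39, a very small protein deep in the wall, stood at 5.80, 2.40, 1.90 and 3.09 cRPKM at the 1-cell stage and at 16.6, 16.5, 22.1 and 14.2 at the 2-cell stage, with no overlap, and it rose 4.68-fold (log2 2.23, SE 0.30, edgeR adjusted p = 7.36e-05). Rpl17 stood at 97.6, 58.9, 57.1 and 78.1 and then at 28.5, 29.7, 38.3 and 34.1. It was lower in each 2-cell library and fell 2.62-fold (edgeR adjusted p = 0.000115). Rpl4 changed by -0.10 (SE 0.12, edgeR adjusted p = 0.451). At the tunnel rim, Rpl22 and Rpl26 rose, by 1.14 and 1.88 on the log2 scale, and the values of Rpl19, Rpl31 and Rpl35 were -0.27, -0.13 and 0.17, none of them called. The Rpl26 call was lost without either Snrpd2 library. Rpl5 and Rpl11, which carry the 5S rRNA and are known for binding Mdm2, had log2 changes of -0.19 and -0.56 and were not called.

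Other large-subunit genes rose further. Rpl21 stood at 0.11, 0.13, 0.10 and 0.15 cRPKM and then at 2.91, 2.43, 2.69 and 2.05, and it rose 16.9-fold (log2 4.08, SE 0.36, edgeR adjusted p = 3.9e-06). Rpl30, which lies near the subunit interface, stood at 1.46, 1.54, 1.58 and 1.78 and then at 12.0, 9.46, 17.0 and 10.1, and rose 6.21-fold (log2 2.64, SE 0.27, edgeR adjusted p = 1.06e-05). Neither gene's stages overlapped.

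Apart from Rpl17, the large-subunit genes that fell included Rpl37, Rpl15 and the paralogue Rpl39l. Rpl37 stood at 49.7, 34.8, 37.8 and 43.8 cRPKM at the 1-cell stage and at 15.2, 13.5, 20.1 and 13.4 at the 2-cell stage, with no overlap, and fell 3.21-fold (SE 0.15 on the log2 scale, edgeR adjusted p = 5.18e-06). Rpl15, a core protein of the subunit, stood at 27.7, 26.1, 23.9 and 27.8 and then at 18.3, 18.4, 15.2 and 15.9, and fell 1.86-fold (edgeR adjusted p = 8.25e-05).

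In the small subunit, 16 of 26 tested genes rose (61.5%, against 38.1% of all genes) and 1 fell (3.85% against 32.0%). The median log2 change was 0.92. A difference between the subunits in the share that rose was not tested. The medians moved closer without either Snrpd2 library, to 0.62 for small against 0.60 for large without the 1-cell one and to 0.57 against 0.59 without the 2-cell one. Of the proteins that line the mRNA channel, 3 of 5 tested rose, Rps3 and Rps26 among them. Rps3, at the channel entry, stood at 2.86, 1.60, 1.20 and 2.39 cRPKM and then at 11.6, 9.54, 13.1 and 9.54, and rose 4.71-fold (log2 2.23, SE 0.23, edgeR adjusted p = 1.17e-05). Rps14 and Rps28 had log2 changes of 0.03 and 1.01 without a call, and Rps2 was not tested.

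Several of the largest small-subunit rises rest on very few 1-cell reads. Rps27a, which is made as a fusion with ubiquitin, had 4 reads over the 1-cell libraries and 212 over the 2-cell libraries, a scaled ratio of 58.0 (95% exact interval of counting 22.3 to 215). Rps26, at the mRNA exit, had 5 and 64 reads, a ratio of 14.0 (5.70 to 44.6). Its edgeR log2 change was 3.73, and 4.43 or 4.46 without the 1-cell or the 2-cell double-injected library. Rpsa had 10 and 55 reads and Rps23, of the decoding centre, 13 and 56, with ratios of 6.01 (3.04 to 13.2) and 4.71 (2.54 to 9.39). The Rps23 call was lost without any 1 of the mCherry, Snrpd2 and double-injected libraries of either stage, and the Rpsa call without either Snrpd2 library. Rps19, which matures the head of the subunit, stood at 1.66, 0.59, 0.35 and 1.05 cRPKM and then at 7.75, 5.51, 11.9 and 5.86, with no overlap, and rose 7.35-fold (log2 2.88, SE 0.47, edgeR adjusted p = 0.000316).

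Rps15a was the 1 small-subunit gene that fell. It stood at 4.02, 3.43, 3.43 and 3.77 cRPKM and then at 1.58, 1.29, 1.84 and 1.31, with no overlap, and fell 2.94-fold (edgeR adjusted p = 8.56e-06). Rps16, among the most abundant of the subunit, rose 1.39-fold (edgeR adjusted p = 0.0129), a call lost without any 1 of the Snrpd2 and double-injected libraries of either stage. Of 8 tested genes on a partial list of those known from Diamond-Blackfan anaemia, an inherited failure of red cell production, 4 rose, Rps7, Rps19 and Rps26 among them. That list leaves out other genes known from the disease, and these went both ways. Among them, Rpl15 and Rps15a fell and Rpl18 and Rpl26 rose.

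The 4 paralogues listed apart, Rpl10l, Rpl3l, Rps27l and Rpl39l, were all called, 3 higher and 1 lower (38.1% and 32.0% of all genes tested). Rpl10l, a retrogene known from the male germ line, stood at 0.78, 0.48, 0.42 and 0.56 cRPKM at the 1-cell stage and at 23.1, 21.9, 36.0 and 24.2 at the 2-cell stage. It rose 38.7-fold (log2 5.27, SE 0.24, edgeR adjusted p = 4.87e-08). Rpl10, the parent gene, stood between 3.29 and 3.70 and then between 5.56 and 13.3 cRPKM, and its log2 change of 0.97 was not called (edgeR adjusted p = 0.112). Rpl10 carries a short length of 71 bases in these values, and it was set beside Rpl10l after its values were seen.

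Rpl3l, the striated-muscle paralogue of Rpl3, had 1 read over the 1-cell libraries and 150 over the 2-cell libraries, a ratio of 164 with an interval of 29.0 to 6520. Its edgeR log2 change was 6.83 (SE 0.88, adjusted p = 5.76e-05), and 8.18 or 8.21 without the 1-cell or the 2-cell Snrpb library. Its 2-cell levels were low, at 0.89, 0.84, 0.42 and 0.57 cRPKM. Rps27l rose 5.63-fold (log2 2.49, SE 0.25, edgeR adjusted p = 9.76e-06). Rpl39l, another germ-line paralogue, stood at 19.1, 14.8, 14.2 and 14.5 and then at 9.99, 11.1, 20.4 and 11.2. It fell 1.47-fold (edgeR adjusted p = 0.046), its 2-cell Snrpd2 library lay above all 1-cell libraries, and the call was lost under 11 alternatives, among them leaving out any 1 library other than the Snrpd2 ones.

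The stage change was also set beside the start motif. Of the 10 tested genes with the TOP motif at an annotated start, 4 rose and 2 fell, and their median log2 change was 0.15. Of the 39 tested genes with an entry and without it, 20 rose and 2 fell, with a median of 0.74. By the wider rule, with the motif within 5 bases of the start, 10 of 22 tested genes rose and 2 fell, with a median of 0.29. Of the 27 without it, 14 rose and 2 fell, with a median of 0.79. Over all genes tested, 38.1% rose and 32.0% fell. No test was made of either difference.

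The balance of the subunits depended on Rps27l and on which genes and summary were used. The summed large-subunit cRPKM was 576, 395, 398 and 473 in the 1-cell mCherry, Snrpb, Snrpd2 and double-injected libraries, against 355, 312, 366 and 331 for the small subunit. The log2 ratio of large to small was 0.70, 0.34, 0.12 and 0.52, a mean of 0.42 ± 0.25 (SD, 4 libraries). At the 2-cell stage the small-subunit sum was higher in each library, and the log2 ratio was -0.91, -0.88, -0.76 and -0.73, a mean of -0.82 ± 0.09. Without Rps27l the large-subunit sum was the higher one in all 8 libraries, and the means were 1.01 ± 0.06 at the 1-cell stage and 0.61 ± 0.12 at the 2-cell stage. These sums cover 47 large-subunit genes against 30 small-subunit genes, or 29 without Rps27l. Their sign is therefore not a balance per gene. The ratio of the median genes was below 0 in all 8 libraries, with means of -0.45 ± 0.24 and -0.54 ± 0.18. Without the genes of a length under 0.5 of the coding length, the ratio of sums had means of -0.07 ± 0.25 and -1.40 ± 0.08, so the 1-cell sign turned. The ratio of medians of the same genes had means of -1.11 ± 0.13 and -0.44 ± 0.08, so the direction between the stages turned. Per library, the median large-subunit gene stood at 4.28, 2.40, 2.18 and 3.34 cRPKM and then at 8.32, 7.20, 12.4 and 7.71, and the median small-subunit gene at 5.16, 3.96, 3.27 and 3.91 and then at 13.1, 11.4, 15.1 and 11.4.

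**Figure D4:**
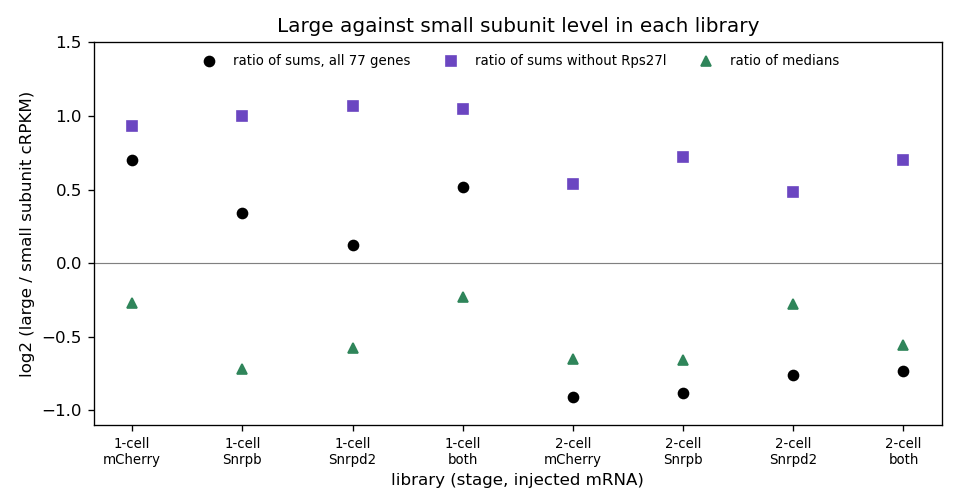
Points give the log2 ratio of large-subunit to small-subunit cRPKM in each library, as a ratio of sums over all 77 genes (circles), of sums without Rps27l (squares) and of medians (triangles). The sums cover 47 large-subunit genes against 30 small-subunit genes, or 29 without Rps27l. The circles lie above 0 at the 1-cell stage and below 0 at the 2-cell stage, while the squares lie above 0 and the triangles below 0 in all 8 libraries.

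Whether extra Sm protein mRNA altered these genes was examined at each stage, by setting the 3 injected libraries against the mCherry library. At the 1-cell stage most ribosomal protein genes were lower in the injected libraries, and Rps27l was higher. The cRPKM of the mCherry library was above all 3 injected libraries in 47 of 69 tested genes (35.4% of all genes tested) and below all 3 in 7 (25.3%). With reads scaled by TMM and at least 50 reads over the 4 libraries, mCherry was the highest library for 46 of 58 genes (79.3%, against 37.4% of all genes) and Snrpd2 the lowest for 38 (65.5%, against 28.6%). Both subunits showed it, with mCherry highest for 27 of 36 large-subunit and 19 of 22 small-subunit genes. The summed level of the cumulus and granulosa markers moved the other way, lowest in the mCherry library. Not all markers followed. Of 20 tested, 2 had an edgeR log2 change below 0, Star and Kitl. Both stood highest in the mCherry library (Star 1.41 cRPKM against 0.9 to 1.36, Kitl 0.77 against 0.6 to 0.64). The part of the marker sum in the result was not tested.

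Each injected library was then set against mCherry on its own, for the 44 genes that reached 50 reads in at least 1 of the 2 libraries. The median log2 ratio was -0.55 in the Snrpb, -0.64 in the Snrpd2 and -0.38 in the double-injected library. Over all genes it was -0.03, -0.06 and -0.04. The 95% interval of the ratio, which covers counting error only, lay below 1 for 35, 37 and 32 of the 44 genes (79.5%, 84.1% and 72.7%). Over all genes that share was 36.9%, 40.6% and 36.9%, so many genes of any kind passed this criterion between 2 libraries. A ratio beyond 2-fold was reached downward by 4, 7 and 0 of them (background 1.29%, 1.51% and 0.891%) and upward by 1, 1 and 0 (background 3.37%, 3.65% and 3.26%).

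Rpl39 had the lowest ratio in all 3 libraries, with 81, 58 and 86 reads in the Snrpb, Snrpd2 and double-injected libraries against 182 in the mCherry library. Scaled, it was 2.26-fold lower (interval 1.73 to 2.98), 2.97-fold lower (2.20 to 4.07) and 1.91-fold lower (1.47 to 2.50). Next came Rpl36a in the Snrpb library (2.21-fold lower), Rpl38 in the Snrpd2 library (2.72-fold lower) and Rps4x in the double-injected library (1.66-fold lower). Rpl36a and Rpl38 belong to the large subunit and Rps4x, encoded on the X chromosome, to the small one. Rpl37a, a zinc-binding large-subunit protein, had ratios of 1.00, 1.16 and 1.27 with intervals that include 1.

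The test across libraries called none of these genes. In the model of stage by injected or control, edgeR called 0 of 69 ribosomal protein genes at the 1-cell stage and 0 of 16867 genes in all (0.0% in either direction). At an unadjusted p under 0.05 it held 14 ribosomal protein genes, 13 lower (6.31% of all genes) and Rps27l higher (9.21%), and 2618 genes in all (15.5%). That number was 7 without the 1-cell Snrpb library and 4 without the 1-cell Snrpd2 library. Over the 69 genes the median log2 change was -0.41 against 0.00 for all genes. The single control library was assumed to vary like the injected ones.

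DESeq2, run as an alternative, called 1 ribosomal protein gene higher (background 2.49%) and 3 lower (background 0.676%) at the 1-cell stage. The higher gene was Rps27l, with a log2 change of 1.34 (SE 0.27, DESeq2 adjusted p = 0.000354). The edgeR value was 1.35 (SE 0.28, adjusted p = 0.146), and over the alternatives the adjusted p ran from 0.000354 with DESeq2 to 0.266. Against mCherry, Rps27l was 2.29-fold (interval 2.15 to 2.44), 3.42-fold (3.22 to 3.64) and 1.91-fold (1.79 to 2.05) higher in the Snrpb, Snrpd2 and double-injected libraries. It was thus higher in 3 of 3 injected libraries, most in the Snrpd2 one, and without that library the edgeR log2 change was 1.09 (SE 0.19, adjusted p = 0.0896).

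The 3 genes that DESeq2 called lower at the 1-cell stage were Rpl5, Rps4x and Rpl39. Rpl5 stood at 31.0 cRPKM in the mCherry library and at 17.9, 17.3 and 19.4 in the injected libraries (DESeq2 log2 change -0.74, adjusted p = 0.0168). Rps4x stood at 16.2 and then at 9.07, 7.29 and 9.97 (-0.86, DESeq2 adjusted p = 0.0262). Rpl39 had a value of -1.22 (DESeq2 adjusted p = 0.0392). The edgeR adjusted p was 0.147, 0.151 and 0.159.

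**Figure D5:**
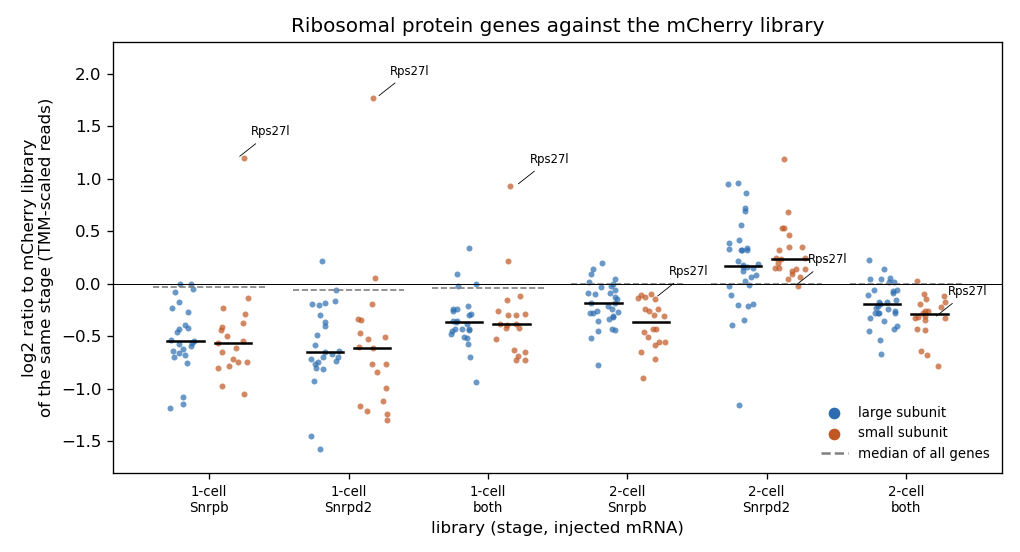
Each point is the log2 ratio of 1 ribosomal protein gene to the mCherry library of the same stage, from TMM-scaled reads, for genes that reached 50 reads in at least 1 of the 2 libraries. Black lines are medians by subunit and dashed lines the median of all genes. The medians lie below 0 in the 3 1-cell libraries, in the 2-cell Snrpb and in the 2-cell double-injected library, and above 0 in the 2-cell Snrpd2 library.

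At the 2-cell stage the injected libraries did not lie on one side of the control. The mCherry library was above all 3 injected libraries in 8 of 69 genes (18.1% of all genes tested) and below all 3 in 8 (27.0%), and the median log2 change was -0.06. EdgeR called 0 ribosomal protein genes and 0 of all genes (0.0% in either direction), none of the former had an unadjusted p under 0.05 (3.78% of all genes did), and DESeq2 called 0 as well. The median log2 ratio to mCherry was -0.26 in the Snrpb, 0.19 in the Snrpd2 and -0.23 in the double-injected library, against 0.00 for all genes in each. Ratios beyond 2-fold were rare: 0 genes up and 0 down in the Snrpb library (background 2.65% and 1.73%), 1 up and 1 down in the Snrpd2 library (background 2.76% and 1.55%), and 0 up and 0 down in the double-injected library (background 2.15% and 1.36%).

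The 2-cell Snrpd2 library stood apart for these genes. It was the highest of the 4 for 50 of 66 genes (75.8%, against 29.3% of all genes), for 24 of 26 small-subunit and 26 of 40 large-subunit genes. The Snrpb library was the lowest for 36 (54.5%, against 26.9%). By subunit, the median log2 ratio to mCherry was -0.36 for small and -0.18 for large in the Snrpb library, 0.24 and 0.17 in the Snrpd2 library, and -0.29 and -0.19 in the double-injected library. Rps25, which the ribosome needs for some internal initiation sites, stood at 35.8 cRPKM in the Snrpd2 library against 14.9, 9.57 and 12.7 in the mCherry, Snrpb and double-injected ones, 2.28-fold above mCherry (interval 1.88 to 2.77). Rpl26 was 1.95-fold above mCherry there (1.25 to 3.08), and Rpl3l 2.22-fold below it (1.35 to 3.75). The Snrpd2 library also had the highest cumulus and granulosa marker sum of the 2-cell libraries and the most 2-cell reads, at 44648717. That sum was highest mostly through Cyp11a1 (3.84 cRPKM against 0.18 to 0.26 in the other 2-cell libraries) and Amhr2 (6.45 against 2.0 to 3.85). Not all markers followed, and Fshr was lowest there (0.01 against 0.32 to 0.54). The part of the marker sum or of the read number in the result was not tested.

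The test of whether the injection effect differed between the stages called no ribosomal protein gene with edgeR (0.0% of all genes in either direction), with 5 of 69 at an unadjusted p under 0.05, no more than the background of 9.77% of all genes, and a median log2 difference of 0.33 against 0.00 for all genes. DESeq2 called 0 higher (background 0.0474%) and 1, Rps27l, lower (background 0.136%), with a log2 difference of -1.47 (DESeq2 adjusted p = 0.0456). In edgeR its value was -1.50 (SE 0.37, adjusted p = 0.381). The Rps27l ratio to mCherry was above 1 in the 3 1-cell libraries and below 1 in the 3 2-cell libraries.

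Genes that work with the ribosomal proteins changed in both directions between the stages. Of 7 ribosomal genes spelled otherwise, 3 rose (42.9%, against 38.1% of all genes) and 1 fell (14.3% against 32.0%). Rack1, the scaffold protein on the 40S head, stood at 51.2, 53.2, 44.9 and 44.1 cRPKM and then at 9.79, 8.89, 11.6 and 12.0, and fell 5.48-fold (edgeR adjusted p = 3.73e-07). Rpl22l1, a paralogue of Rpl22, rose 2.91-fold (edgeR adjusted p = 0.00133), and Rpl7l1 2.00-fold (edgeR adjusted p = 6.21e-05).

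Of 16 other mRNAs known to carry a TOP motif, 6 rose (37.5%, against 38.1% of all genes) and 7 fell (43.8% against 32.0%). Their median log2 change was -0.24. Pabpc1, the poly(A) binding protein, rose 8.71-fold and Tpt1 3.12-fold. Eif3e, an initiation factor subunit, fell 4.75-fold and Eef1d, of the elongation factor complex, 2.57-fold. Of 10 genes that control TOP mRNAs, 4 rose and 2 fell. Rps6kb1, the kinase of Rps6, rose 1.80-fold and Rptor, the mTOR partner that recruits substrates, 1.44-fold, while Mlst8 fell 2.44-fold and Rheb, the activator of mTOR, 1.94-fold. Mtor and Larp1 had log2 changes of 0.03 and 0.32 and were not called.

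The chaperones of ribosomal proteins and the factors of late subunit assembly divided evenly, with 7 up and 7 down of 15 measured. That is 46.7% each way, against 38.1% up and 32.0% down of all genes. Zfp622, a late 60S factor, ranged from 0.13 to 0.46 cRPKM at the 1-cell and from 44.4 to 60.9 at the 2-cell stage, and rose 144-fold (log2 7.17, edgeR adjusted p = 3.12e-08). Tsr2, the escort of Rps26, stood between 0.09 and 0.22 and then between 1.42 and 2.25, and rose 11.4-fold (edgeR adjusted p = 8.93e-06). Riok1, a kinase of 40S maturation, stood between 530 and 621 and then between 84.5 and 103, and fell 7.26-fold (edgeR adjusted p = 3.17e-08). Pdcd2l, a relative of the Rps2 chaperone Pdcd2, fell 7.20-fold (edgeR adjusted p = 7.56e-08).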

How the data were processed

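Polyadenylated RNA was sequenced from 8 pools of 40 embryos, 1 for each stage and injection, after RNeasy Micro extraction and SMARTer Stranded library preparation on a HiSeq2500, per the labels' protocols. The deposited tables give whole-number counts of reads per Ensembl gene and cRPKM. The authors' cRPKM, an RPKM value, matched count over length and library total, with 1 length for each gene, to within 0.16% for 2662 genes with over 2000 reads. Reads were placed on mm9, per the submitters' processing notes. Which aligner and annotation served, and whether strand was used, is not given in the sources used here. Of 22667 identifiers, 1114 had no value and 20759 matched a GENCODE vM21 symbol, from which coding lengths were also taken. RefSeq windows are on GRCm38.p6, and no coordinates were converted.

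Counts were tested with edgeR 4.0.16 in R 4.3.3 (quasi-likelihood, TMM, filterByExpr, Benjamini-Hochberg over all genes, threshold 0.05). An SE given with an edgeR value was worked back from the log2 change and the F statistic of the test, so it is approximate. The stage model, with terms for injection and stage, had 3 residual degrees of freedom and a dispersion of 0.043, and the 4-group model (16867 genes) had 4 and 0.0362. DESeq2 1.42.0, limma 3.58.1 on log2(cRPKM + 0.1) or log2(cRPKM + 1), other scalings, no filter, and leaving out each library were alternatives. On simulated counts with known changes, the stage test recovered 88 of 100 genes changed 2-fold and 100 of 100 changed 4-fold (15891 genes), and the 1-cell injection test 16 and 97 of 100 (16190 genes), with 8 false calls each. In the simulation the changed genes were drawn from those above a minimum of reads, and every gene had the same dispersion. Recovery of genes with few reads was therefore not covered. Few genes were changed, and all of them upward, whereas 38.1% of all genes were called higher and 32.0% lower with stage. Recovery under changes that broad was not covered either.

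Ratios of 1 library to another used TMM-scaled reads with exact conditional binomial intervals at 95%. They cover counting error alone, since reads without molecular identifiers can be PCR copies, and 0 reads allow up to 3. Named genes were those called lower with stage, the 10 largest called rises, the highest and lowest levels, the most extreme ratios to mCherry in each library, genes called for injection, and the listed functional groups, with the 2 largest called changes each way of the other lists. Riok2, of the assembly factors, was not matched. A few genes that this rule names are not reported here. The genes, lists and tests were chosen with earlier results of these data known.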

Additional observations from a re-analysis of the deposited data

Results flagged for a closer look

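In 92 sets of 4 libraries of 1 stage, 5 values stood far from the other 3 libraries by Dixon's gap test at 95%. Chance flags about 1 in 20 such groups, and the 4 libraries of a stage were injected differently, so these are not replicate outliers. At the 1-cell stage the mCherry library stood high for Rpl5 (30.98 cRPKM), Rps16 (26.28 cRPKM) and Rpl39l (19.11 cRPKM). At the 2-cell stage the Snrpd2 library stood high for Rpl10l (36.03 cRPKM) and Rpl39l (20.38 cRPKM).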

How the results depend on the processing

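The count of ribosomal protein genes that rose with stage lay between 25 and 45 over all alternatives and the count that fell between 4 and 8, against 35 and 6, and no called gene changed sign. Leaving out 1 library at a time gave 25 to 34 and 5 to 8, and a median log2 change of 0.59 to 0.93. Scaling by library totals moved the median stage change of all genes from 0.154 to 0.413 and that of the ribosomal protein genes from 0.76 to 1.02. DESeq2 called 1 gene higher and 3 lower for injection at the 1-cell stage and 1 lower for the stage difference, where edgeR called 0. The cause was not tested.

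The mean log2 ratio of large to small subunit was 0.42 at the 1-cell and -0.82 at the 2-cell stage. Without the paralogues Rpl10l, Rpl3l, Rps27l and Rpl39l it was 0.96 and 0.51. Without genes of a length under 0.5 of the coding length it was -0.07 and -1.40, as a ratio of medians -0.45 and -0.54, and with geometric means of cRPKM + 1 -0.12 and -0.51. The alternatives chosen after seeing the data gave 1.01 and 0.61 without Rps27l, and -0.30 and -0.49 as medians without those paralogues. As medians of genes of at least 0.5 of the coding length they gave -1.11 and -0.44. The sign at either stage thus depended on the summary, with Rps27l alone reversing the 2-cell value. The stage model pairs the 2 libraries of an injection through its injection term, and without that term 36 genes rose and 7 fell. The labels give no replicate numbers to pair on otherwise. Ratios between libraries of genes with few reads are limited by counting.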

Other observations

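Rps4l, left out above because the annotation calls it a pseudogene, stood at 11.9, 6.23, 8.57 and 6.97 cRPKM in the 1-cell mCherry, Snrpb, Snrpd2 and double-injected libraries and at 19.7, 12.1, 34.9 and 20.2 in the 2-cell libraries. Its highest library was mCherry at the 1-cell stage and Snrpd2 at the 2-cell stage. It rose 2.07-fold with stage (edgeR adjusted p = 0.00199), and its injection value at the 1-cell stage was -0.68 on the log2 scale (edgeR adjusted p = 0.462).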
